A study of Homo sapiens with 14 samples.

Results

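SERBP1 and 8 further genes for RNA-binding proteins of ribosomes and ribonucleoprotein granules were followed at the level of single splice events: SERBP1, HABP4, RACK1, G3BP1, G3BP2, CAPRIN1, FMR1, FXR1 and FXR2. An event was kept when the mean of its WT and MT read numbers was at least 10, which left 134 of the 144 events listed for these 9 genes, among 94061 events of all genes that met the same minimum. The RNA-seq libraries were made from HEK293T, an established line of human embryonic kidney origin, carrying SF3B1 K700K (WT, 3 libraries) or SF3B1 K700E (MT, 3 libraries), the MT allele being carried at the endogenous locus of an isogenic line. SF3B1 is the splicing factor that holds the branch point region of the intron, and the comparison of MT with WT asks which splice choices differ with the K700E allele. A second assay, DNA:RNA immunoprecipitation sequencing (DRIP-seq) with the S9.6 antibody, was run in Nalm-6 cells, a human leukemic B cell line, with SF3B1 K700K or K700E, either untreated or after RNaseH1 (RNH1) treatment of the DNA, with 2 libraries for each of these 4 groups. How many clones stand behind each genotype is not given in the sources used here, so p-values measure only the spread between these libraries.

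SERBP1 binds mRNA and sits on ribosomes, where it can occupy the mRNA channel of ribosomes that are not translating. HABP4 is its paralog. RACK1 is a scaffold protein of the small ribosomal subunit. G3BP1 and G3BP2 drive the assembly of stress granules, in which stalled mRNAs collect, and CAPRIN1 is their binding partner. FMR1, FXR1 and FXR2 encode the fragile X family, RNA-binding proteins that associate with polysomes and repress translation.

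The splice choice that passed the test in this group lies at a pair of 3′ splice sites in SERBP1, which is on the minus strand of chromosome 1 (67407810 to 67430415, GRCh38). A second pair of sites begins the next exon downstream. The sequence at that second pair is shown because it gives the bases gained or lost by the neighbouring choice. It is read 5′ to 3′ on the transcribed strand, with the segment between the upstream and the downstream site in capitals, intron and downstream exon bases in lower case, and an AG just before each site.
SERBP1 45-base segment, chr1:67424263-67424382, minus strand: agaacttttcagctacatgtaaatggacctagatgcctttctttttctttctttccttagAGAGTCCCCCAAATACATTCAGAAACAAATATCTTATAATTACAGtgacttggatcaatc
The segment at the pair that passed the test is 18 bases long and lengthens an exon of 72 bases to 90 bases. The 45-base segment spans 67424278 to 67424322. Both lengths are multiples of 3, and both segments lie within coding sequence. Of the 20 bases before the AG, 100% are pyrimidines at the upstream site of the 45-base segment and 50% at its downstream site. The annotation lists 8 SERBP1 transcripts, of which 3 use the upstream and 3 the downstream site of the 18-base pair. The 4 with a complete coding sequence hold each combination of the 2 segments, at 387 codons with neither, 393 with the 18-base segment, 402 with the 45-base segment and 408 with both.

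Inclusion of the 18-base SERBP1 segment rose in MT cells. The inclusion level is the fraction of junction reads, corrected for length by the authors, that supports the longer form. It was 0.461, 0.5 and 0.509 in the WT libraries and 0.801, 0.757 and 0.805 in the MT libraries. Each MT level lay above each WT level. The means were 0.490 ± 0.026 (SD, n = 3) and 0.788 ± 0.027 (SD, n = 3), a difference of 0.298 with an SE of 0.021 (limma on arcsine square root levels, Benjamini-Hochberg adjusted over all 83581 events tested, adjusted p = 6.76e-10). The authors' mean read number for the event was 3651 for WT, and 3474 for MT over 6 values that they list. In this fit the event had the smallest p of all events tested, and the 18th largest absolute difference of the 26 called. An event was called when the adjusted p was under 0.05 and the absolute difference above 0.1, which holds for 0.0311% of all events tested. The SERBP1 call was lost with limma on untransformed levels (adjusted p = 0.214, unadjusted p = 1.02e-05) and without the trend of variance on read number (limma adjusted p = 0.164, unadjusted p = 0.000135), where none of the other events was called either. An exact permutation test of 3 libraries against 3 cannot give a p under 0.1. The study followed SERBP1 up partly on account of its splicing in data that include this cell line, so the call is not independent evidence. Its other reasons included the presence of SERBP1 in published sets of DNA:RNA hybrid interactors.

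The neighbouring choice in the same gene did not pass the test. The 45-base segment was included at 0.251, 0.178 and 0.182 in WT and at 0.252, 0.166 and 0.162 in MT libraries. The groups overlapped fully, with library 1 of WT and level column 1 of MT above the others. The difference was −0.010 with an SE of 0.038 (limma adjusted p = 0.86), at 3662 reads on average, a depth like that of the 18-base event. A second listed comparison of the 45-base segment stood at 0.993, 0.992 and 0.975 in WT and at 0.993, 1.0 and 1.0 in MT libraries. Its difference was 0.011 with an SE of 0.006, at 369 reads on average (limma adjusted p = 0.856). Whether the 18-base and 45-base differences differ from each other was not tested. The exon that carries the 18-base segment was itself kept nearly always. Its 72-base and 90-base forms were included at 0.997 to 1.0 in every library in the 5 exon skipping comparisons that hold them. Among the 15 SERBP1 events tested, 1 was called and the median absolute difference was 0.001. In the mutually exclusive exon comparisons, which set reads of neighbouring exons against each other, MT minus WT was 0.006, 0.002 and −0.002.

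**Figure D1:**
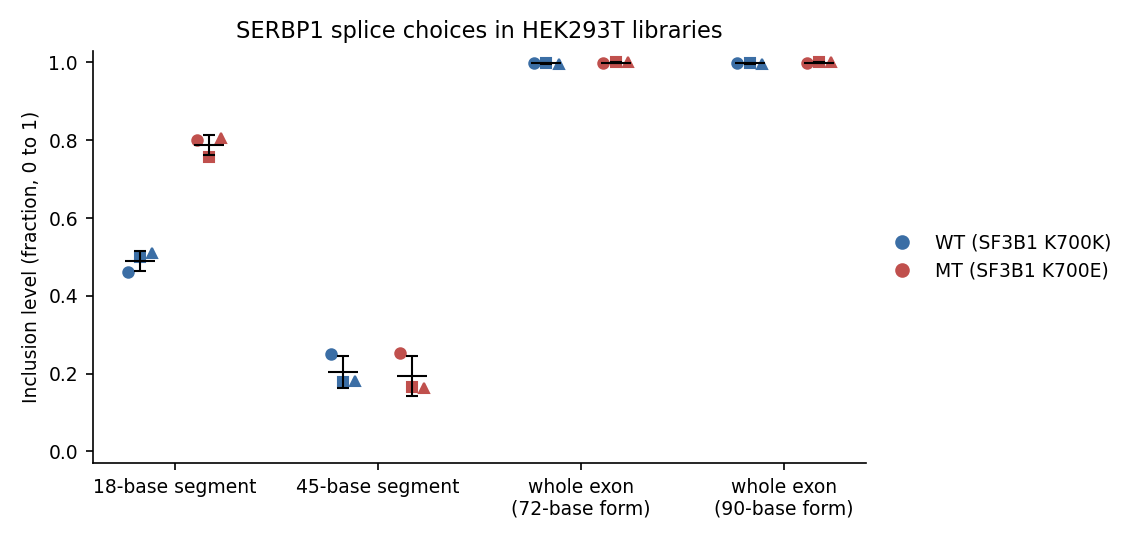
Inclusion level (fraction, vertical axis) of 4 SERBP1 splice choices in WT (blue) and MT (red) HEK293T libraries. Circles, squares and triangles are level columns 1, 2 and 3, and bars give the mean ± SD of 3. The 18-base segment stands at 0.461 to 0.509 in WT and 0.757 to 0.805 in MT, whereas the 45-base segment overlaps between the groups and the exon is kept in both its 72-base and 90-base forms.

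Of the 134 events of the 9 genes, 103 could be tested and 31 had the same level in all 6 libraries. SERBP1 gave the 1 event called, which is 0.971% of the members tested. Over all genes, 0.0311% of events tested and 0.224% of alternative 3′ splice site events were called. The member share rests on this 1 event, and the members were chosen with earlier results of these data known. Every MT level lay above every WT level in 2 member events, or 1.94%, against 2.32% of all events tested. Every MT level lay below every WT level in 3 member events, or 2.91%, against 3.15% of all events tested. Both shares were near the background. The events above were those of SERBP1 and G3BP2, and those below were 1 of FMR1 and 2 of FXR1. All these counts and shares rest on the 3 MT level columns, not on the 6 listed MT values. The median absolute difference was 0.002 over the members and 0.0137 over all events tested. An absolute difference above 0.1 was found in 2 member events, or 1.94%, against 5.8% of all. These were the SERBP1 event and 1 FMR1 event. Of the 134 member events, 29 had a mean level between 0.05 and 0.95. RACK1, with a median of 8069 reads per event, gave 29 of the 103 tested. The members were not matched to all events for level or read number. Differences above 0.05 were found in 6 of 13 alternative 3′ splice site events and in 2 of 90 events of other types, or 46.2% and 2.22%, against 23.1% and 16.8% of all tested events of these types. Of those 6, 2 are FMR1 comparisons that share reads, and the G3BP2 and RACK1 events had 17.2 and 19.8 reads on average. Outside SERBP1, the smallest adjusted p was 0.856 (limma). Many events of one gene share exons and junction reads, so they are not independent of each other.

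**Figure D2:**
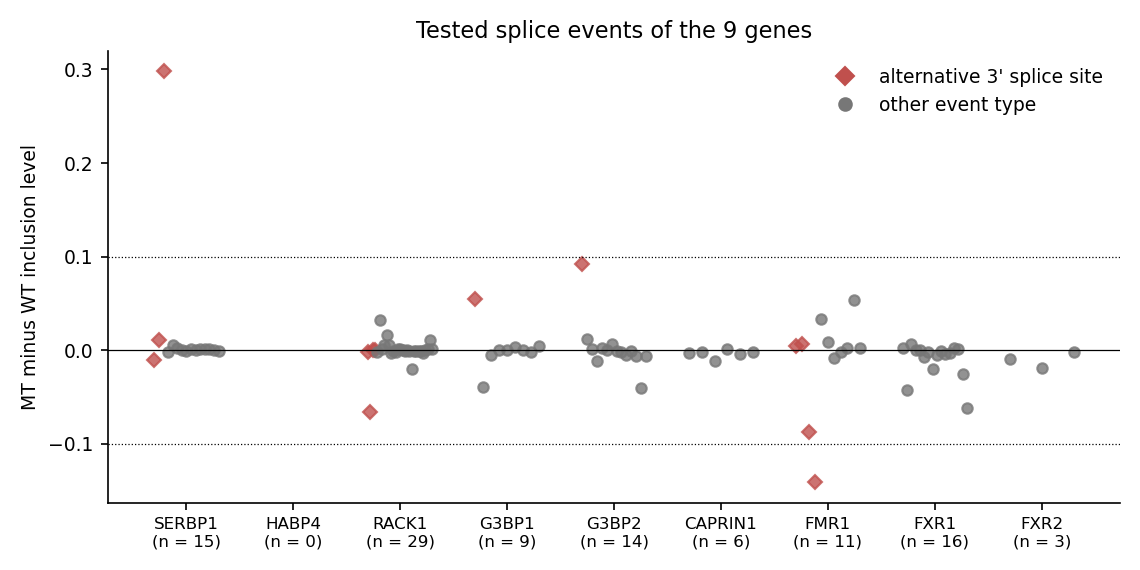
MT minus WT inclusion level (vertical axis) of each tested event by gene, with red diamonds for alternative 3′ splice sites and grey circles for other event types, and n the number of events tested. Dotted lines mark a difference of 0.1 in either direction. The SERBP1 event at 0.298 stands alone at the top, 1 FMR1 event lies below the lower line at −0.141, and most others lie close to 0.

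HABP4, the paralog of SERBP1 (chromosome 9, 96450169 to 96491336), had 3 events with enough reads, all exon skipping, and all were at 1.0 in every library. These events had 52.5 to 102 reads on average, and none could be tested. No tandem 3′ splice site of HABP4 was listed, so the SERBP1 choice has no counterpart to compare in its paralog.

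RACK1 (chromosome 5, minus strand, 181236897 to 181248096) had the most events, 45 with enough reads, of which 29 were tested and none was called, at a median of 8069 reads. Its median absolute difference was 0.001. Of its 14 tested exon skipping events, 11 differed by at most 0.001 between MT and WT means, each at 7009 reads or more. These 11 stood at 0.0 to 0.002 or at 0.993 to 1.0 in every library, close to the limits of the scale. The largest RACK1 difference, −0.066 with an SE of 0.096, was at an alternative 3′ splice site of 18 bases (181240328 to 181240345) with only 19.8 reads on average. It was included at 0.846, 0.944 and 0.738 in WT and at 0.628, 0.876 and 0.827 in MT libraries (limma adjusted p = 0.856). The groups overlapped, and without MT level column 1 the difference was 0.009. This segment has the same length as that of SERBP1. The RACK1 retained intron comparisons that could be tested differed by −0.003 to 0.001. Those at 0.999 to 1.0 in every library span stretches in which 15 and 17 annotated transcripts have coding bases. Their levels need not measure retention.

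The stress granule nucleators each had their largest difference at a 3′ splice site. In G3BP1 (chromosome 5, plus strand, 151771045 to 151812911), a segment of 31 bases (151786572 to 151786602), which no annotated transcript codes from although the exon behind it is coding, was included at 0.769, 0.807 and 0.715 in WT and at 0.815, 0.798 and 0.842 in MT libraries. The levels overlapped, since WT library 2 lay above MT level column 2. The difference was 0.055 with an SE of 0.030, at 439 reads on average (limma adjusted p = 0.856), and without WT library 3 it was 0.030. In the annotation, 23 of 78 G3BP1 transcripts use the upstream and 18 the downstream site. The other 8 tested G3BP1 events had absolute differences of at most 0.039, that value coming from a pair of mutually exclusive exons at 0.190, 0.102 and 0.183 in WT and at 0.161, 0.114 and 0.082 in MT libraries.

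In G3BP2 (chromosome 4, minus strand, 75641849 to 75724589), a segment of 24 bases (75662050 to 75662073) was included at 0.078, 0.0 and 0.0 in WT and at 0.130, 0.107 and 0.118 in MT libraries. Every MT level lay above every WT level. The difference was 0.092 with an SE of 0.027, but the event had only 17.2 reads on average and it was not called (limma adjusted p = 0.856). Only 1 of 90 annotated G3BP2 transcripts uses the upstream site, against 52 for the downstream site. A coding exon of 99 bases, held by some G3BP2 transcripts, was included at 0.095, 0.082 and 0.122 in WT and at 0.110, 0.077 and 0.077 in MT libraries, with 382 reads on average (limma adjusted p = 0.859). This exon is minor in both genotypes and its levels overlap.

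CAPRIN1 (chromosome 11, plus strand, 34051731 to 34102610), the partner of the G3BP proteins, had 8 exon skipping events, with levels of 0.975 to 1.0 throughout and 485 to 1167 reads on average. Its largest difference was −0.011 with an SE of 0.007, at an exon of 53 bases that was at 1.0 in all 3 WT libraries and at 0.991, 0.975 and 1.0 in MT libraries (limma adjusted p = 0.856).

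FMR1 (chromosome X, plus strand, 147911919 to 147951125) carries 3 successive 3′ splice sites at the start of one coding exon, and the comparison between them gave the largest difference outside SERBP1. The sequence is shown from the upstream to the downstream site because all 3 sites fall within it. The segment in capitals is 75 bases long. Its leading 36 bases lie between the upstream and the middle site and the remaining 39 bases between the middle and the downstream site.
FMR1 segment, chrX:147944809-147944958, plus strand: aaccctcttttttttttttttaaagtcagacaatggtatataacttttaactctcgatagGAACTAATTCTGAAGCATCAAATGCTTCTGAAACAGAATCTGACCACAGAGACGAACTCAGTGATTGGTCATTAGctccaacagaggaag
All 3 lengths are multiples of 3. Of 35 annotated FMR1 transcripts, 14 use the upstream, 4 the middle and 5 the downstream site. The upstream site was the main one in both genotypes.

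Measured against the downstream site, the longer form from the upstream site stood at 0.929, 0.818 and 0.846 in WT and at 0.755, 0.795 and 0.782 in MT libraries. In the 3 MT columns, every level lay below every WT level. The difference was −0.087 with an SE of 0.035, at 266 reads on average (limma adjusted p = 0.856). The same 75-base segment is listed in another comparison, at 1.0, 1.0 and 0.988 in WT and at 1.0 in all 3 MT libraries. There the difference was 0.004 with an SE of 0.004, at 123 reads on average (limma adjusted p = 0.856). The longer form from the middle site, against the downstream site, stood at 0.835, 0.695 and 0.723 in WT and at 0.490, 0.716 and 0.624 in MT libraries. The groups overlapped, with the lowest level in MT column 1 and the highest in WT library 1. The difference was −0.141 with an SE of 0.078, at 111 reads on average (limma adjusted p = 0.856). The upstream against the middle site differed by 0.007 with an SE of 0.039, from 0.829 ± 0.042 to 0.836 ± 0.052 (SD, n = 3 each). The downstream site is the one that the −0.087 and −0.141 comparisons have in common, and they count the same downstream reads. In rMATS, reads that cross the inner site within the exon also count for the longer form, so transcripts that use the upstream site can add to the middle site's level. Neither comparison passed the adjusted test. Without WT library 1 the upstream difference was −0.055, and without MT level column 1 the middle difference was −0.081. A 63-base exon of FMR1 that is mostly skipped was included at 0.061, 0.167 and 0.133 in WT and at 0.135, 0.251 and 0.136 in MT libraries, a difference of 0.054 with an SE of 0.050 (limma adjusted p = 0.856).

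FXR1 (chromosome 3, plus strand, 180868141 to 180982753) had 16 tested events and no alternative 3′ splice site among them. Its largest difference was at an exon of 92 bases near the 3′ end of the gene (180975313 to 180975404), which 6 of 24 annotated transcripts hold and 5 code from. It is shown because its length is not a multiple of 3, so that skipping it shifts the reading frame of what follows. The exon is in capitals.
FXR1 exon, chr3:180975283-180975414, plus strand: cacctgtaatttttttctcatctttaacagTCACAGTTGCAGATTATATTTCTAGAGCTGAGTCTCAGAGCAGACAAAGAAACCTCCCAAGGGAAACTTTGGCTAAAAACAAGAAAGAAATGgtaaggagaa
It was included at 0.433, 0.486 and 0.431 in WT and at 0.405, 0.363 and 0.395 in MT libraries. In the 3 MT columns, every level lay below every WT level. The difference was −0.062 with an SE of 0.022, at 324 reads on average (limma adjusted p = 0.856). The authors' mean over all 6 listed MT values was 0.428, nearer to the WT mean of 0.450 than the mean of the 3 columns, 0.388. A mutually exclusive exon comparison that includes the same exon stood at 0.822 in both genotypes. Another FXR1 exon, of 344 bases, was included at 0.011, 0.005 and 0.004 in WT and at 0.0 in all 3 MT columns. With these columns the groups did not overlap, at a difference of −0.007. The authors' mean over the 6 listed MT values was 0.003, so listed values outside the columns reach the WT range. An FXR1 intron of 87 bases was retained at 0.250, 0.243 and 0.271 in WT and at 0.220, 0.260 and 0.284 in MT libraries, with means of 0.255 in both.

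FXR2 (chromosome 17, minus strand, 7591230 to 7614897) had 3 events. An exon of 87 bases that no annotated transcript codes from was included at 0.039, 0.030 and 0.054 in WT and at 0.017, 0.017 and 0.031 in MT libraries. The lowest WT level lay just under the highest MT level, and the difference was −0.019 with an SE of 0.008 (limma adjusted p = 0.856). The other FXR2 events differed by −0.009 and −0.002.

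**Figure D3:**
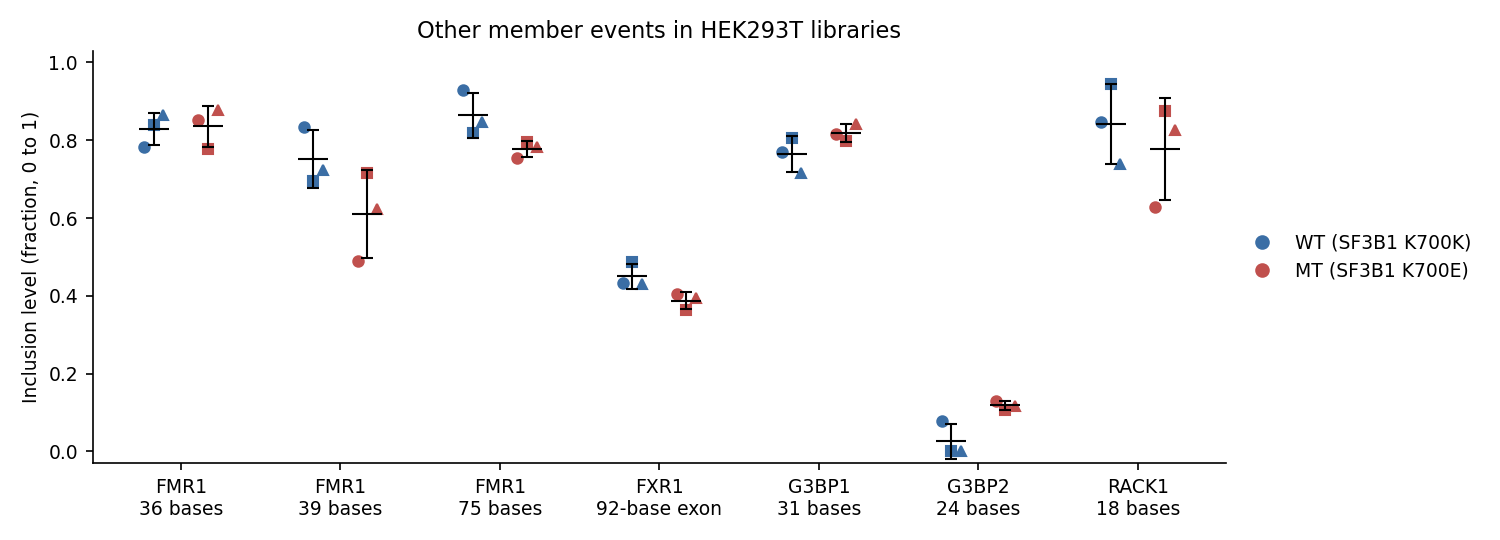
Inclusion level (fraction, vertical axis) of 7 events of FMR1, FXR1, G3BP1, G3BP2 and RACK1 in WT (blue) and MT (red) HEK293T libraries, with symbols for level columns 1, 2 and 3 and bars for the mean ± SD of 3. For FMR1 the labels give the bases between the sites compared. With the 3 MT columns, MT and WT levels do not overlap for the FMR1 75-base, FXR1 and G3BP2 events, and overlap for the other 4.

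The authors' mean over the 6 listed MT values was 0.786 for the SERBP1 segment, against 0.788 for the 3 columns. For the FMR1 75-base comparison it was 0.806 against 0.777, for G3BP1 0.841 against 0.818, and for G3BP2 0.115 against 0.118. The SERBP1 level thus hardly depended on which MT values were taken. Over all 6 values the FMR1 75-base and FXR1 92-base differences were smaller, and that of G3BP1 was larger. The 6-value means of these FMR1 and FXR1 events require listed MT values outside the columns that reach the WT range. Their separation of the genotypes thus holds for the 3 columns and not for all 6 values.

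A list of 30 other genes for stress granule and ribosome-bound proteins had 678 events with enough reads, of which 618 were tested and 0 called by limma. The share called over all events tested was 0.0311%, too small to set the list apart. An unadjusted limma p under 0.05 was found for 29 of them, and the smallest adjusted p was 0.424. Every MT level lay above every WT level in 15 events, or 2.43%, and below in 22, or 3.56%, next to 2.32% and 3.15% over all events tested. The median absolute difference was 0.006. The largest was at a retained intron of PABPC4, a poly(A)-binding protein, at 0.750, 0.667 and 1.0 in WT and 1.0 in all 3 MT libraries, with 13.6 reads on average and groups that overlapped.

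DRIP peaks in Nalm-6 cells give a view of DNA:RNA hybrids (R-loops) over the same genes in another cell line. With a summit inside the gene or up to 3000 bp upstream, the 9 genes held 16 and 14 peaks in the untreated WT and 28 and 33 in the untreated MT libraries. The ratio of the means was 2.03, and over all peaks of the genome it was 2.16. The 9 genes thus held 1.29 and 1.07 of every 10000 peaks for WT, and 1.10 and 1.11 for MT, which overlap. No test was made, since 2 libraries against 2 cannot give an exact p under 0.33. Peak depth in reads is unknown here, and the number of peaks called moves with it.

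SERBP1 held 1 peak in each untreated WT library and 2 in each untreated MT library, and 0 in all 4 RNH1-treated libraries. Their highest fold enrichments were 4.71 and 3.03 for WT, and 3.99 and 4.47 for MT. No peak of any library reached the stretch from the exon with the 18-base segment to the exon upstream of it. RACK1 had no peak in any of the 8 libraries. G3BP1 held 1 peak in each untreated WT library and 6 in each untreated MT library, with 0 and 1 after RNH1 in WT and 3 and 4 after RNH1 in MT. The highest G3BP1 peak, around chr5:151798066-151798582, was called in the untreated and in the RNH1-treated MT libraries, so it was found with and without the enzyme.

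FXR1 had 2 peaks in each untreated WT library and 9 in each untreated MT library, the most of the 9 genes in MT but not in WT, where HABP4 had 4 and 3. After RNH1 it had 1 and 3 for WT, and 11 and 9 for MT. Only 1 untreated FXR1 peak in each WT library, and 3 and 4 in the MT libraries, were free of overlap with the peaks of the matching RNH1-treated library. HABP4 had 3 and 2 in untreated MT libraries. G3BP2 had 4 and 2 in WT and 5 in each MT library, CAPRIN1 1 and 2 against 1 and 5, FMR1 2 and 2 against 0 and 2, and FXR2 1 against 2 in each. Over the 9 genes, the peaks free of such overlap numbered 13 and 10 for WT, and 14 and 20 for MT. The RNH1-treated libraries themselves differed, with 3 and 10 peaks at the 9 genes in WT and 25 and 21 in MT. All their peaks numbered 35091 and 77725 for WT, and 202148 and 199155 for MT, so that the 9 genes held 0.855 and 1.29 of every 10000 for WT, and 1.24 and 1.05 for MT, which overlap.

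**Figure D4:**
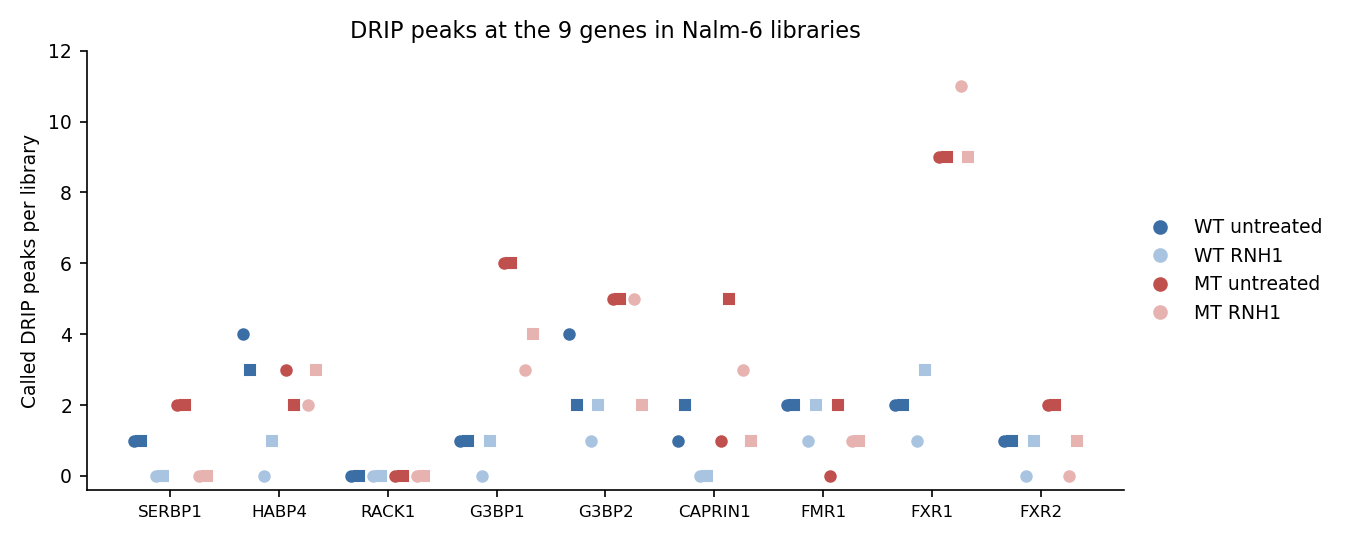
Number of called DRIP peaks (vertical axis) at each of the 9 genes in Nalm-6 libraries, with circles for library 1 and squares for library 2 of WT untreated, WT RNH1, MT untreated and MT RNH1 cells. FXR1 has 9 peaks in each untreated MT library and 2 in each untreated WT library, and RACK1 has none.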

How the data were processed

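Per the labels, RNA-seq used a stranded kit and the submitters' processing notes name STAR, StringTie and BWA with GRCh38. The authors deposited 1 table of splice events (rMATS statistics) with inclusion levels as fractions. The MT columns repeat values 1, 2 and 6 of 6 listed MT values, although the labels give 3 MT samples, and which sample each column is was not given in the sources used here. The lists of junction counts were not used, since digit grouping hides the borders between libraries. A WT list that does not split into 3 values was found in 38.8% of member events and in 2.44% of all events. No count test was therefore run. Library totals are not in the table, so depth is given as the authors' mean read number per event, and intervals for counting error were not computed. For MT that mean is over the 6 listed values, and the read minimum uses it too. The authors' own p-values, q-values, differences and significance labels were not used.

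Levels were arcsine square root transformed and fitted with limma 3.58.1 (R 4.3.3), with a variance trend on log2 mean reads, over 83581 events (mean reads of at least 10, levels not all equal), with Benjamini-Hochberg adjustment. The fit was also run on simulated levels, with the same spread setting for every event. That run is not evidence on how the calls behave in these data. Named were each called member event, the largest difference of each gene, and events with non-overlapping libraries and a difference of at least 0.05. The SERBP1 45-base, FMR1 36-base and 63-base, FXR1 87-base and 344-base, G3BP1 mutually exclusive and G3BP2 99-base events were chosen after their values were seen. So were the further comparisons of the SERBP1 45-base and FMR1 75-base segments. Exons and transcripts come from GENCODE v44 on GRCh38, whose exons match the table's coordinates (starts counted from 1 here). Protein sequences were not used here. The sequence at the SERBP1 18-base segment is not reported here.

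DRIP-seq peaks were called per library by the authors with MACS2, and the deposited ratio used is fold enrichment at the summit. Members and lists were chosen with earlier results of these data known.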

Additional observations from a re-analysis of the deposited data

How the results depend on the processing

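The count of events called over all genes was 26. It was 3 with a logit transform, 0 with untransformed levels, 0 without the variance trend, 17 with a read minimum of 50, and 3 to 13 with 1 library left out in turn. The count for the 9 genes, 1, became 0 with untransformed levels and 0 without the variance trend. The SERBP1 difference of 0.298 was unchanged there, with limma adjusted p = 0.214 and limma adjusted p = 0.164. Under a logit transform (limma adjusted p = 0.00103) and with other read minimums the call held. With 1 library left out it ranged from 0.283 to 0.313, and the largest adjusted p, 0.0175 (limma), came without MT level column 1. Member events with non-overlapping libraries numbered 5, and 7 to 24 with 1 library left out, where fewer libraries must be separated. The RACK1 18-base difference, −0.066, ranged from −0.118 to 0.009 with 1 library left out, the last without MT level column 1. The other named events kept their direction with 1 library left out. A change of transform, variance trend or read minimum leaves the difference in mean level as it is, so none could reverse there. With 1 library left out, the FMR1 differences ranged from −0.110 to −0.055 (75 bases) and from −0.194 to −0.081 (39 bases), that of G3BP1 from 0.030 to 0.076, that of CAPRIN1 from −0.017 to −0.004 and that of FXR1 from −0.072 to −0.044. For DRIP peaks, the MT to WT ratio of 2.03 was 1.97 without the upstream flank and 1.89 for peaks of at least 4-fold enrichment. No paired analysis was possible because the MT level columns carry no replicate number of the labels. For events at intermediate levels, deviations from the group mean correlated at 0.22, 0.22 and 0.06 between WT libraries and MT columns of the same number. Between those of unlike number the correlations ran from −0.23 to 0.05. What lies behind these values was not tested. In events of few reads, such as those of G3BP2 and RACK1, depth limits what can be seen.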
